A study of Mus musculus with 12 samples.

Results

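Transcript levels of 9 genes tied to the allantois and the extraembryonic mesoderm were followed across 4 sorted fractions of mouse embryos at embryonic day 7.5. The genes are Foxf1 (written Foxf1a on the array), Tbx4, Hand1, Twist1, Pitx1, Vcam1, Postn, Ahnak and Pmp22. Every array probe that carries one of these names was taken, which gave 18 probes of the 41174 on the array and 9 of 27539 gene names. Foxf1, Hand1, Twist1, Pitx1 and Postn have 1 probe each, Tbx4 and Pmp22 have 2, Vcam1 has 3 and Ahnak has 6. For the tests, the probe of highest mean level stood for its gene.

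The cells came from 1 pool of about 300 embryos of 25 litters (strain CD-1, no mutation or treatment named), and 3000 cells were sorted for each sample. Fractions were separated by 2 surface proteins. Endoglin is a co-receptor for TGF-beta ligands, and Flk1, encoded by Kdr, binds vascular endothelial growth factor. The 4 fractions carry both proteins (Eng+Flk1+), Flk1 alone (Eng-Flk1+), Endoglin alone (Eng+Flk1-) or neither (Eng-Flk1-), with 3 arrays each. Eng+Flk1+ cells are also called double-positive and Eng-Flk1- cells double-negative. Because all samples share that pool, p-values reflect how far sorted samples of that pool vary, a variation that may be technical, and say nothing of variation among embryos or litters.

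The extraembryonic mesoderm leaves the embryo through the posterior primitive streak and lines the yolk sac, the amnion and the chorion. The allantois buds from it, grows toward the chorion, fuses with it and supplies the vessels of the umbilical cord. Flk1 marks the mesoderm from which the first blood and vessel cells arise, and Endoglin is carried by endothelial cells and by subsets of that mesoderm. Foxf1 is a forkhead transcription factor that the allantois and yolk sac mesoderm need to grow and form vessels, and Tbx4 is a T-box factor of the allantois and later of the hindlimb. Hand1 and Twist1 are basic helix-loop-helix factors, Hand1 of trophoblast, extraembryonic mesoderm and heart, Twist1 of mesenchyme. Vcam1 is an adhesion molecule with which the allantois attaches to the chorion.

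Sequences are shown for probes of Foxf1, Tbx4, Vcam1 and Ahnak, each of which reads without a stop codon in at least 1 frame. The Twist1 probe is not shown, although Twist1 changed between fractions. The Foxf1 probe lies at chr8:123972758-123972817 and the Tbx4 probe at chr11:85727345-85727404, both on the plus strand of build mm8, and they are shown because Foxf1 changed between fractions and because only this one of the Tbx4 probes gave a signal above background. The Vcam1 probe (chr3:116118039-116118098, minus strand) and the pair of Ahnak probes (at base 10409 and base 5364 of transcript 1, chr19:9078551-9078610 and chr19:9073506-9073565, plus strand) are shown because probes of those 2 genes disagree. Sequences are as in the deposited files, 60 bases each.
Foxf1 probe: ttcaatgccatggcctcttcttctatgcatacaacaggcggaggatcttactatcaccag
Tbx4 probe: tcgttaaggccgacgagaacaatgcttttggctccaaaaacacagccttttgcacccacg
Vcam1 probe at base 842: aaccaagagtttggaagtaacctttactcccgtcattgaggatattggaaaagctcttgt
Ahnak probe at base 10409: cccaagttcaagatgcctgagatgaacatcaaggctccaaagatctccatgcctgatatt
Ahnak probe at base 5364: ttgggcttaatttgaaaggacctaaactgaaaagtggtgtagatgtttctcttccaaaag

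Promoters were read from RefSeq (GRCm38.p6), where 5 of the 9 genes matched. The 250 bases before the start are shown for Tbx4 (chr11:85896515-85896764) and Twist1 (chr12:33957421-33957670), both on the plus strand, because the levels of these 2 genes had the highest correlation over the 12 arrays among the 36 pairs of members (Pearson r = 0.82, given as a description). Over the 9 arrays without double-negative cells it was 0.66, below the 0.73 of Foxf1 with Hand1. Capitals mark E-boxes, the motif bound by basic helix-loop-helix factors, searched as CANNTG on both strands, which for this motif are the same letters.
Tbx4 upstream: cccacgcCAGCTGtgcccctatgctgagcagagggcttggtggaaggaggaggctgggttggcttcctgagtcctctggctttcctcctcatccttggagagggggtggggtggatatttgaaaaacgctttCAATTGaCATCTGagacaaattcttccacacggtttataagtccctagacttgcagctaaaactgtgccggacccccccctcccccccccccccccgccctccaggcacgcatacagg
Twist1 upstream: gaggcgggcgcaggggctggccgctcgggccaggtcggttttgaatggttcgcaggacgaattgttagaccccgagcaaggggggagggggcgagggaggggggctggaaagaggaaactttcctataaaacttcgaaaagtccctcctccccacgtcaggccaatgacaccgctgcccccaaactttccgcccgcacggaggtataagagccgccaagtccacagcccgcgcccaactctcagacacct

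The Tbx4 window holds 3 E-boxes, beginning 243, 118 and 111 bases before the start, and the Twist1 window holds 0. An E-box occurs in 66.2% of the 32851 promoter windows of the same length. A T-box half-site (GGTGTGA, 3.33% of windows), a forkhead core (TGTTTAC, 3.17%), a Pitx site (TAATCC, 6.25%) and a GLI site (TGGGTGGTC, 0.225%), each searched on both strands, had 0 matches in the windows of Tbx4, Twist1, Postn, Ahnak and Pmp22. Matches are letters in these windows and no measurement of binding.

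Levels are given on the log2 scale, with the 75th percentile of each array set to 0, and a fold is a difference of mean levels on the log2 scale with its standard error (SE) from limma. The sort was visible in Kdr, whose mean level was 1.64 in double-positive cells and 1.11 in Eng-Flk1+, while Eng+Flk1- averaged -5.38 and double-negative cells -6.20. Eng itself changed in 0 of the 6 pair comparisons by limma (3 had an unadjusted p under 0.05, and the lowest limma adjusted p was 0.0940, in double-positive cells against double-negative cells). Spots well above background made up 80.2% to 83.3% on the 9 arrays of double-positive cells, Eng-Flk1+ and Eng+Flk1-, against 66.5% to 76.3% on the double-negative arrays. Correlations of genes between pairs of arrays of a fraction were 0.812 to 0.912 in the first 3 fractions, against 0.674 to 0.719 in double-negative cells. The arrays lie on 3 slides: slide 1 holds Eng-Flk1+ replicate 1 and all double-negative arrays, slide 2 holds double-positive replicates 1 and 2 and Eng-Flk1+ replicates 2 and 3, and slide 3 holds double-positive replicate 3 and all Eng+Flk1- arrays.

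Markers of other cells differed between the fractions. The summed linear level of 8 visceral endoderm genes was 1.98 to 4.47 over the 9 arrays of the other fractions, against 36.1 to 188 in double-negative cells, where 6 of the 8 were well above background on every array and Afp on none. The summed level of 8 endothelial genes was 33.4 to 58.9 in double-positive cells and 9.31 to 14.2 in Eng-Flk1+, against 2.48 to 3.63 in Eng+Flk1- and 3.28 to 5.69 in double-negative cells. That of 8 trophoblast genes was 4.97 to 10.7 in double-positive cells, 3.36 to 7.38 in Eng-Flk1+ and 19.4 to 24.2 in Eng+Flk1-, against 2.78 to 6.69 in double-negative cells. Epiblast genes (6) summed to 6.99 to 19.9 over the other fractions, against 31.6 to 105.2 in double-negative cells. Nascent mesoderm genes (8) summed to 14.2 to 28.3 over the other fractions and 20.6 to 36.5 in double-negative cells, and primitive erythroid genes (7) to 1.36 to 16.2 over the other fractions, against 25.2 to 40.7 in double-negative cells. Cardiac mesoderm genes (6) summed to 4.64 to 7.67 over the other fractions, against 8.99 to 16.4 in double-negative cells. These genes disagreed: Nkx2-5, Isl1 and Myl7 had higher means in Eng-Flk1+ (-5.12, -4.46 and 1.30) than in double-negative cells (-5.96, -6.51 and 0.62). Smarcd3, Myl4 and Tnnt2 had lower means in Eng-Flk1+ than in double-negative cells. Maternal decidua genes (5) summed to at most 5.03 and leukocyte genes (5) to at most 4.95 on any array. Their part in the results on the 9 genes was not tested.

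**Figure D1:**
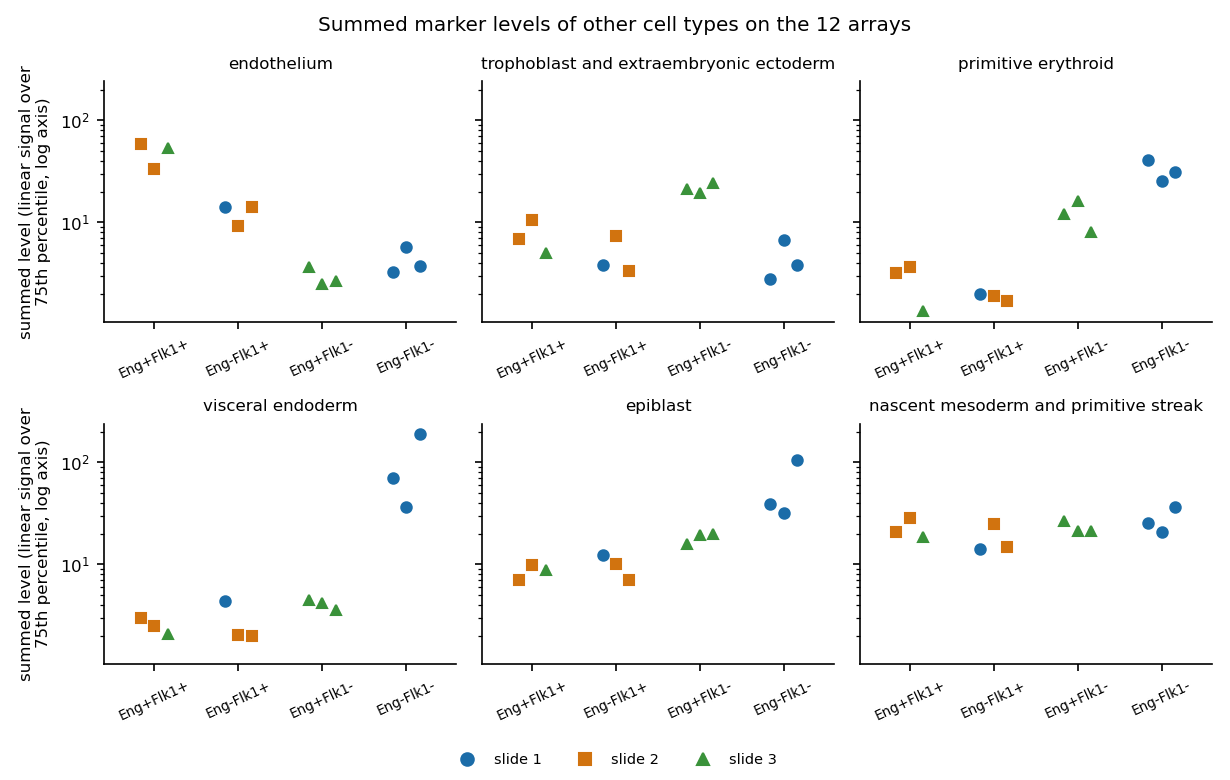
Summed levels of the marker genes of 6 other cell types or tissues on each of the 12 arrays (linear signal over the 75th percentile of the array, log axis), by fraction, 1 point an array, with the slide as colour and shape. Endothelial markers are highest in Eng+Flk1+ (33.4 to 58.9), trophoblast markers in Eng+Flk1- (19.4 to 24.2) and visceral endoderm markers in Eng-Flk1- (36.1 to 188).

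All 9 genes passed the filter on dim probes (above background, by the scanner's flag, on the 3 arrays of some fraction), as did 22720 genes in all. Foxf1 and Twist1 were the members that changed: Foxf1 was higher in Eng-Flk1+ and in Eng+Flk1- than in double-negative cells, and Twist1 was higher in double-positive cells and in Eng-Flk1+ than in double-negative cells. In double-positive cells against double-negative cells, 1 of 9 rose, against 1.97% of all genes, and in Eng-Flk1+ against double-negative cells, 2 of 9 rose, against 1.64% (limma, adjusted p under 0.05). In Eng+Flk1- against double-negative cells, 1 of 9 rose, against 1.23% of all genes, and 0 fell in any of these. The shares of genes called in either direction were 2.36%, 1.91% and 1.46%. These 3 comparisons share the double-negative arrays. With the slide as a block, 0 members were called in each of them. With the slide as a random block, calls over all genes in Eng+Flk1- against double-negative cells rose from 331 to 2832. Those 2 fractions share no slide, and what part the slide has in passes under that setting, here and below, was not tested.

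The median fold of the 9 genes was 0.93 in double-positive cells against double-negative cells, 2.52 in Eng-Flk1+ against double-negative cells and 2.48 in Eng+Flk1- against double-negative cells, beside medians of all genes of -0.06, -0.13 and -0.06. In Eng+Flk1- against double-negative cells, the arrays of 5 members lay higher without overlap and those of 1 lower, against 8.93% and 10.1% of all genes. In Eng-Flk1+ against double-negative cells they lay higher for 3 (9.42% of all genes) and lower for 0 (12.7%), and in double-positive cells against double-negative cells higher for 2 (8.88%) and lower for 1 (9.19%).

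Between the fractions that carry a marker, limma called 0 of the 9 genes. In double-positive cells against Eng-Flk1+, 0.0264% of all genes were called, and 2 members, against 4.78% of all genes, had an unadjusted p under 0.05 (Foxf1 and Pitx1, both with negative folds). In double-positive cells against Eng+Flk1- 0.295% of all genes were called, and 2 members, against 6.6% of all genes, had an unadjusted p under 0.05 (Hand1 and Foxf1, both negative). In Eng-Flk1+ against Eng+Flk1- 0.101% were called, and 2 members, against 5.37% of all genes, had such a p (Twist1, positive, and Ahnak, negative). The median folds of the members were -1.46, -1.23 and 0.39 in these comparisons, beside 0.10, -0.01 and -0.09 over all genes. Members whose arrays lay apart were 1 higher (7.45% of all genes) and 2 lower (6.37%) in double-positive cells against Eng-Flk1+, 1 higher (7.83%) and 3 lower (7.35%) in double-positive cells against Eng+Flk1-, and 3 higher (7.08%) and 2 lower (8.6%) in Eng-Flk1+ against Eng+Flk1-.

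**Figure D2:**
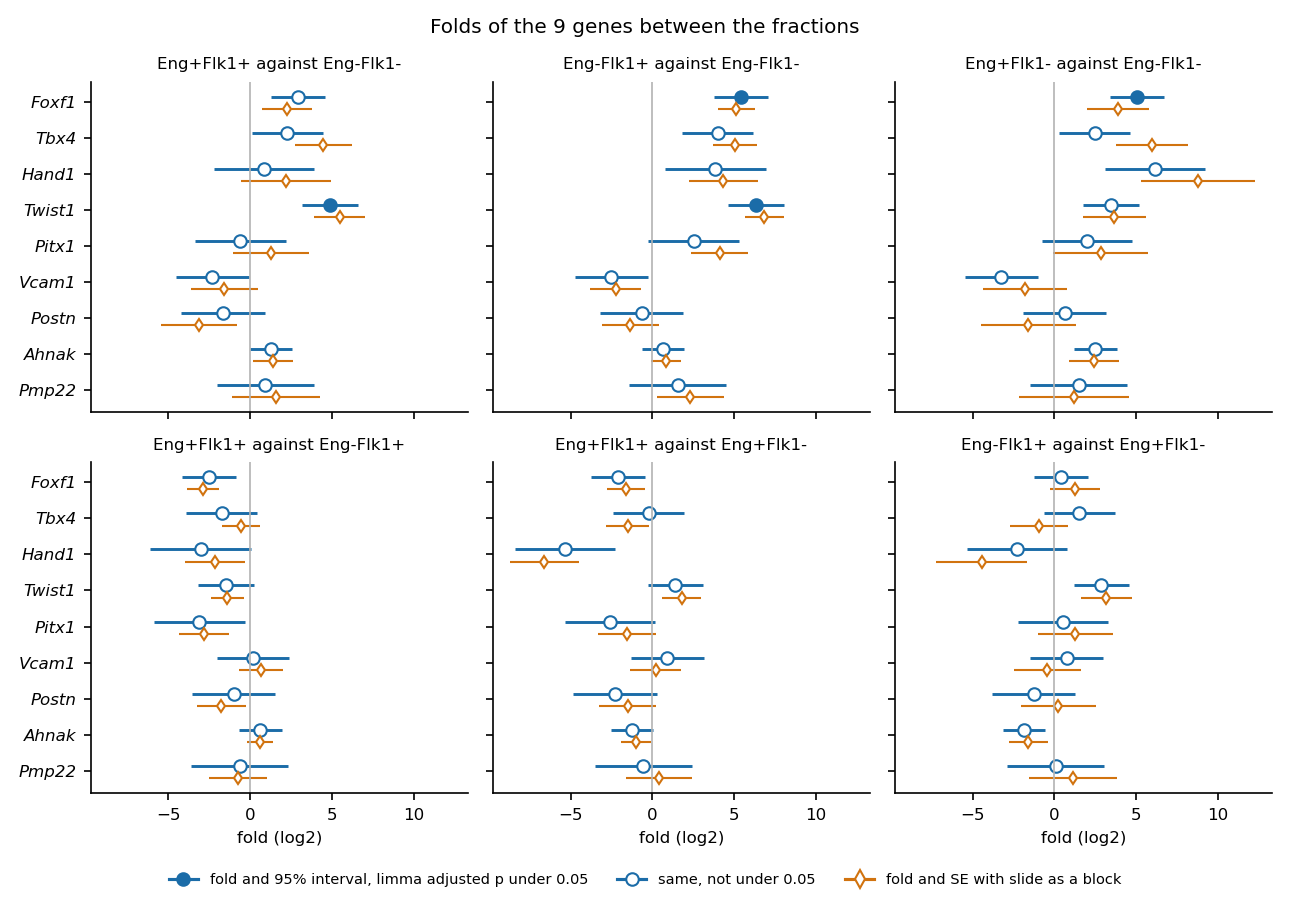
Folds (log2) of the 9 genes in the 6 comparisons between fractions, with the 95% interval from limma over 12 arrays (circles, filled where the adjusted p is under 0.05) and the fold with SE when the slide is a block (diamonds). The filled circles are Foxf1 (5.43 and 5.03) and Twist1 (6.34 and 4.88) against Eng-Flk1-. The Twist1 values against Eng-Flk1- are fitted to a probe that is not well above background there. The bounds in the main processing are 5.22, 3.76 and 2.34 for Eng-Flk1+, Eng+Flk1+ and Eng+Flk1-. With the slide as a block 0 are called.

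**Figure D3:**
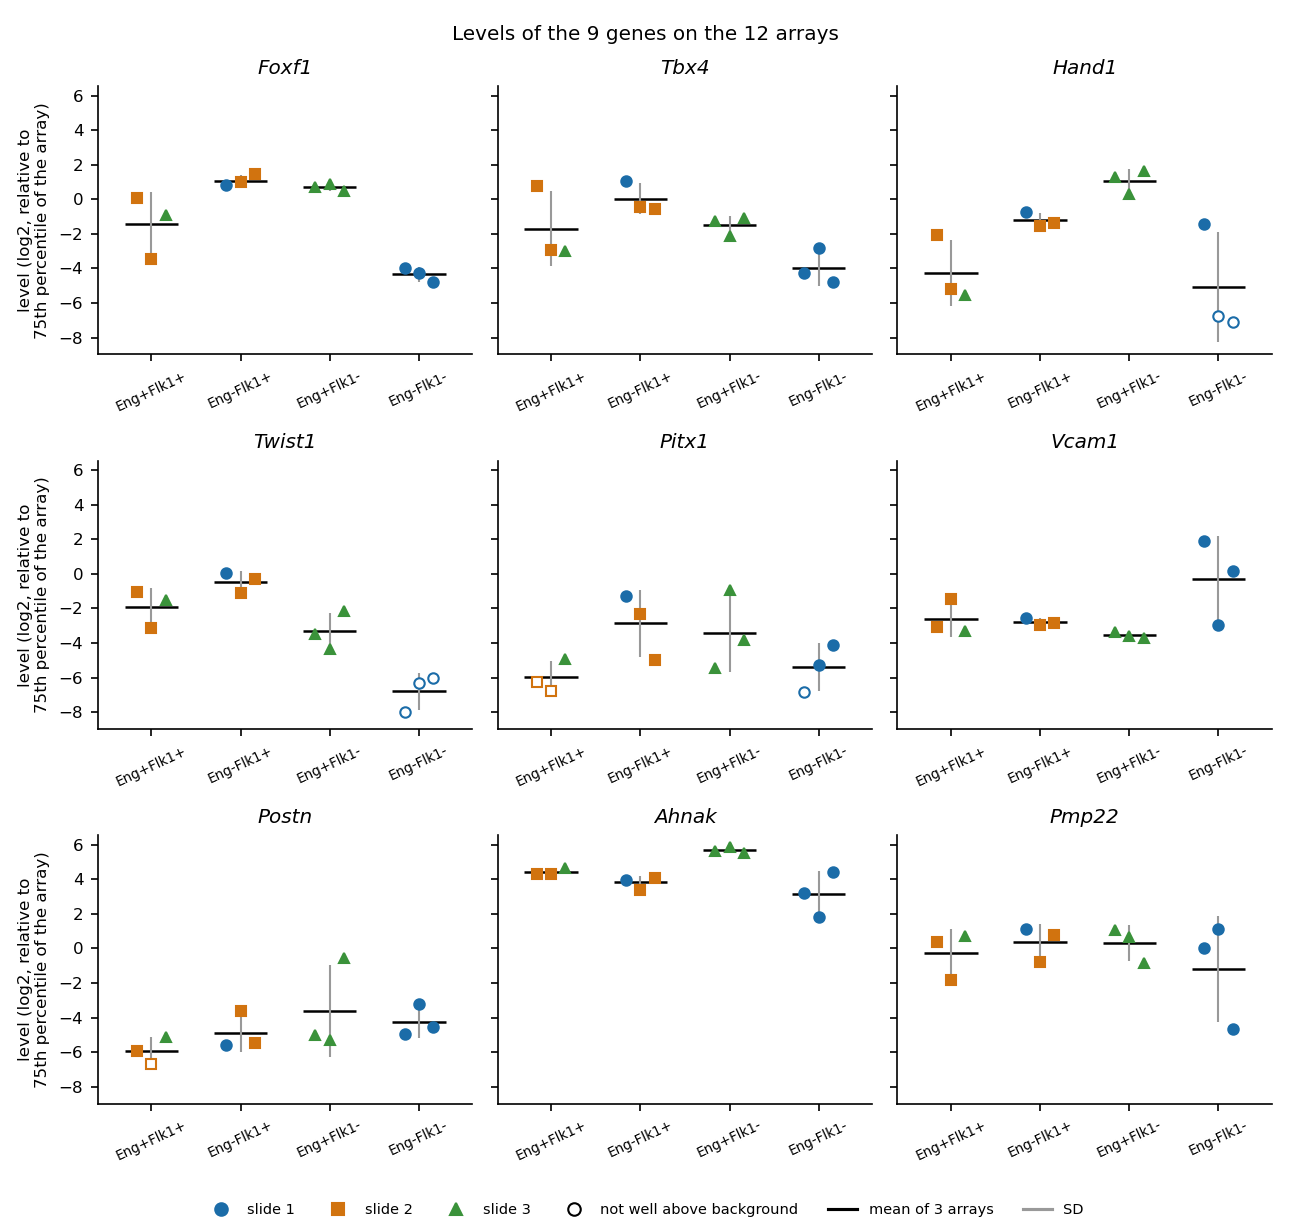
Level of the representative probe of each of the 9 genes on the 12 arrays (log2, 75th percentile of each array set to 0), by fraction, with the mean and SD of 3 arrays and the slide as colour and shape. Open points are not well above background. Foxf1 is at 0.47 or above on all Eng-Flk1+ and Eng+Flk1- arrays and at -3.98 or below on the 3 Eng-Flk1- arrays.

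Foxf1 had levels of 0.10, -3.43 and -0.93 in double-positive cells, of 0.80, 1.00 and 1.43 in Eng-Flk1+, and of 0.71, 0.87 and 0.47 in Eng+Flk1-, against -3.98, -4.27 and -4.79 in double-negative cells (replicates 1 to 3). The Eng-Flk1+ and Eng+Flk1- arrays lay close together, the double-positive arrays spread below them, and the double-negative arrays lay under all others, with the probe well above background on all 12. Foxf1 rose in Eng-Flk1+ against double-negative cells (fold 5.43 ± 0.75 SE, limma adjusted p = 0.00629) and in Eng+Flk1- against double-negative cells (5.03 ± 0.75, limma adjusted p = 0.0101). In bulk samples, fewer cells that make a transcript and less RNA per cell cannot be told apart. The fold of double-positive cells against double-negative cells was 2.93 ± 0.75 (limma adjusted p = 0.0795), and without double-positive replicate 2 it passed (3.93, limma adjusted p = 0.00574), as it did with the slide as a random block (2.97, 0.00745).

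Each of the Foxf1 calls against double-negative cells held in 24 of 25 alternatives, among them each of the 12 fits without 1 array, and ended with the slide as a block (folds of 5.15, limma adjusted p = 0.220, and 3.88, limma adjusted p = 1.000). On slide 1 the Eng-Flk1+ array stood at 0.80, against a mean of -4.35 on the 3 double-negative arrays. Eng+Flk1- and double-negative cells share no slide. On slide 2 the double-positive arrays averaged -1.67, against 1.22 in Eng-Flk1+, and on slide 3 the double-positive array stood at -0.93, against a mean of 0.69 in Eng+Flk1-. The arrays did not overlap in either case, and over all arrays the folds were -2.50 (limma adjusted p = 0.633; 95% interval -4.15 to -0.85) and -2.11 (limma adjusted p = 0.555; -3.76 to -0.45).

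The difference that goes with Endoglin had folds of opposite sign for Foxf1, -2.50 among Flk1 positive cells and 5.03 among Flk1 negative cells. This interaction was -7.53 ± 1.06 SE (limma adjusted p = 0.0236), and Foxf1 was the 1 member of 9 called, against 0.26% of all genes called in that direction and 0.273% in either. By unadjusted p, 7 of the 9 members lay under 0.05, against 2394 of the 22720 genes tested. The call was kept in 18 of 25 alternatives and lost with the slide as a block (-6.76, limma adjusted p = 0.394), with the replicate block (0.0526) and without Eng-Flk1+ replicate 1 (0.0618), Eng-Flk1+ replicate 3 (0.0621), Eng+Flk1- replicate 1 (0.0552), Eng+Flk1- replicate 2 (0.0700) or Eng+Flk1- replicate 3 (0.0524), the fold staying between -7.67 and -6.76 in these. Over all 25 alternatives the Foxf1 interaction lay between -8.29 and -5.15. The median interaction of the 9 genes was -4.22, beside 0.14 over all genes, and 8 of 9 were negative, Vcam1 being the exception.

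Twist1, measured by a probe at chr12:34544793-34544852 (plus strand, mm8), had levels of -1.08, -3.13 and -1.53 in double-positive cells, of 0.07, -1.13 and -0.31 in Eng-Flk1+, and of -3.50, -4.33 and -2.16 in Eng+Flk1-, against -8.01, -6.34 and -6.03 in double-negative cells. It was well above background on all 9 arrays of the first 3 fractions and on 0 of the 3 double-negative arrays. Folds against double-negative cells are therefore given as bounds, for the main processing. At that bound Twist1 was 37.3-fold higher in Eng-Flk1+ and 13.6-fold higher in double-positive cells than in double-negative cells. The bounds themselves were not tested. The fits to the measured levels, double-negative signals not well above background included, gave limma adjusted p = 0.00360 and 0.00946. The bound takes each double-negative array at the lowest signal of any probe well above background on it, where the Twist1 signal lay under that. That signal is no detection limit: on double-negative replicate 1 it was -5.85, and a Vcam1 probe at -5.64 was not well above background. Over the alternatives the lowest log2 folds were 2.33 in Eng-Flk1+, 1.19 in double-positive cells and 0.35 in Eng+Flk1-. These lie under the log2 bounds of 5.22, 3.76 and 2.34.

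In Eng+Flk1- the bound was 5.08-fold against double-negative cells, and the difference in the measured levels did not pass (limma adjusted p = 0.0593). With the slide as a random block it passed (limma adjusted p = 0.00322). There the SE was 0.53, against 0.77, though these 2 fractions share no slide. The call of Eng-Flk1+ against double-negative cells held in 23 of 24 alternatives and that of double-positive cells against double-negative cells in 21 of 24. The first ended with the slide as a block (limma adjusted p = 0.105), and the second with the slide as a block (0.552), with quantile normalization (0.0503) and with the normexp background (0.242). On slide 1 the Eng-Flk1+ array stood at 0.07, above all 3 double-negative arrays. Between the fractions with a single marker the arrays did not overlap either, Eng-Flk1+ being higher than Eng+Flk1- by 2.88 ± 0.77 (limma adjusted p = 0.329; 95% interval 1.18 to 4.58). That difference passed with the slide as a random block (2.68, limma adjusted p = 0.0466) and with array weights (3.05, 0.0447).

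Tbx4 had levels of 0.78, -2.92 and -3.00 in double-positive cells, of 1.08, -0.42 and -0.57 in Eng-Flk1+, and of -1.27, -2.11 and -1.11 in Eng+Flk1-, against -4.28, -2.85 and -4.81 in double-negative cells. Replicate 1 of double-positive cells stood far above replicates 2 and 3, and the Eng-Flk1+ and Eng+Flk1- arrays lay above all double-negative arrays. The fold of Eng-Flk1+ against double-negative cells was 4.01 ± 0.98 (limma adjusted p = 0.0759), and it passed without double-negative replicate 2 (4.58, limma adjusted p = 0.0446) and without double-positive replicate 1 (4.01, limma adjusted p = 0.0181), and with the slide as a random block (3.93, 0.0261). Eng+Flk1- exceeded double-negative cells by 2.48 ± 0.98 (limma adjusted p = 0.285). The other Tbx4 probe (chr11:85732087-85732146) was well above background on 0 of 12 arrays.

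Hand1 (chr11:57645035-57645094, minus strand) had levels of -2.05, -5.19 and -5.54 in double-positive cells, of -0.75, -1.58 and -1.36 in Eng-Flk1+, and of 1.26, 0.29 and 1.64 in Eng+Flk1-, against -1.43, -6.73 and -7.13 in double-negative cells. Eng+Flk1- lay above every other array, and in double-negative cells the probe was well above background on replicate 1 alone. The fold of Eng+Flk1- against double-negative cells was 6.16 ± 1.39 (limma adjusted p = 0.0630; 95% interval 3.09 to 9.24), and that of double-positive cells against Eng+Flk1- was -5.33 ± 1.39 (limma adjusted p = 0.237; -8.40 to -2.25).

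Whether Hand1 passed turned on double-negative replicate 1 and on the processing. Without that array the probe is well above background on neither remaining double-negative array. Folds against them are given as bounds by the same rule as for Twist1, for the main processing. The bounds, which were not tested, were 101-fold higher in Eng+Flk1- and 20.6-fold higher in Eng-Flk1+ than in double-negative cells. In the fits to the measured levels without that array, Hand1 passed in both comparisons (limma adjusted p = 0.00372 and 0.0148). It also passed in double-positive cells against Eng+Flk1- (-5.33, 0.0410) and in the interaction (0.00861, with no fold given since it rests on the same 2 arrays). The fold of double-positive cells against Eng+Flk1- also passed without all 3 double-negative arrays (limma adjusted p = 0.0445) and with the normexp background (-3.46, 0.0226). That of Eng+Flk1- against double-negative cells passed with the normexp background (3.15, limma adjusted p = 0.0305), with the slide as a random block (5.84, 0.00400) and with the replicate block (6.16, 0.0400). On slide 3, which both fractions share, the double-positive array stood at -5.54, against a mean of 1.07 in Eng+Flk1-. Trophoblast also makes Hand1, and the summed trophoblast markers were 19.4 to 24.2 in Eng+Flk1-, against 2.78 to 10.7 over the other fractions. Their part in the Hand1 levels was not tested.

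Pitx1, a homeodomain factor of the hindlimb and the pituitary, spread widely within fractions. Its levels were -6.26, -6.75 and -4.95 in double-positive cells, -1.27, -2.35 and -4.998 in Eng-Flk1+, and -5.43, -0.93 and -3.85 in Eng+Flk1-, against -6.84, -5.26 and -4.10 in double-negative cells. It was well above background on 9 of 12 arrays (1, 3, 3 and 2 of 3 in that order), and 0 comparisons passed. Among the pair comparisons the lowest p was that of double-positive cells against Eng-Flk1+ (-3.12 ± 1.26, limma adjusted p = 0.959).

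Vcam1 had negative folds in each comparison against double-negative cells. Its representative probe (chr3:116102302-116102361, minus strand) had levels of -3.08, -1.44 and -3.33 in double-positive cells, of -2.55, -2.98 and -2.86 in Eng-Flk1+, and of -3.34, -3.57 and -3.71 in Eng+Flk1-, against 1.89, -2.97 and 0.18 in double-negative cells. Replicates 1 and 3 of double-negative cells stood above all other arrays and replicate 2 among them. The folds against double-negative cells were -2.32 in double-positive cells, -2.50 in Eng-Flk1+ and -3.24 in Eng+Flk1- (limma adjusted p = 0.303, 0.239 and 0.171). Without double-negative replicate 2 all 3 passed, at -3.65, -3.83 and -4.57 (limma adjusted p = 0.0170, 0.0142 and 0.00700), and so did the interaction (4.75, limma adjusted p = 0.0382). The fold in Eng+Flk1- also passed with the slide as a random block (-3.42, limma adjusted p = 0.0112).

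A second Vcam1 probe (chr3:116109058-116109117) was also highest on double-negative replicate 1, at 0.09, and was well above background on 4 of 12 arrays. The third, at base 842 of the transcript, was well above background on 1 array, Eng-Flk1+ replicate 1 (-2.42). The representative probe lies at base 3060. The Vcam1 signal was highest in the fraction where visceral endoderm markers summed to 36.1 to 188, and epiblast markers to 31.6 to 105.2. What part those cells have in it was not tested.

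Postn encodes periostin, a matrix protein that binds integrins. Its levels were -5.93, -6.69 and -5.13 in double-positive cells, -5.59, -3.64 and -5.46 in Eng-Flk1+, and -5.03, -5.29 and -0.55 in Eng+Flk1-, against -4.97, -3.21 and -4.56 in double-negative cells. A single array, Eng+Flk1- replicate 3, stood far above the rest, and the probe was well above background on 11 of 12 arrays. Folds lay between -2.29 and 0.62 over the 6 comparisons and 0 passed. Without that array the fold of Eng+Flk1- against double-negative cells was -0.92, against 0.62 with it. A further probe in the gene, named for a clone in the files and left out by the rule, was well above background on 4 arrays.

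Pmp22, a membrane protein of myelin that is also made in growing tissues, had levels of 0.36, -1.83 and 0.71 in double-positive cells, of 1.15, -0.76 and 0.75 in Eng-Flk1+, and of 1.09, 0.68 and -0.87 in Eng+Flk1-, against 0.02, 1.11 and -4.68 in double-negative cells. The fractions overlapped in every pair. Folds lay between -0.63 and 1.56, with limma adjusted p of 0.561 or more. Without double-negative replicate 3, the 3 folds against double-negative cells turned negative (-0.82, -0.19 and -0.27 for double-positive cells, Eng-Flk1+ and Eng+Flk1-). A second Pmp22 probe was well above background on 1 array.

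Ahnak encodes a very large scaffold protein under the plasma membrane. Its representative probe had levels of 4.33, 4.31 and 4.67 in double-positive cells, of 3.98, 3.37 and 4.10 in Eng-Flk1+, and of 5.65, 5.84 and 5.53 in Eng+Flk1-, against 3.20, 1.84 and 4.45 in double-negative cells. The Eng+Flk1- arrays lay above all 9 others. The fold of Eng+Flk1- against double-negative cells was 2.51 ± 0.59 (limma adjusted p = 0.0720) and passed without double-negative replicate 3 (3.16, limma adjusted p = 0.0123), with quantile normalization (3.15, 0.00995), with the mean of all probes (2.86, 0.0145), with the slide as a random block (2.53, 0.00369) and with an intensity trend (2.51, 0.0403). That of double-positive cells against double-negative cells passed with quantile normalization (2.02, limma adjusted p = 0.0437). The fold of Eng-Flk1+ against Eng+Flk1- was -1.86 ± 0.59 (limma adjusted p = 0.521; 95% interval -3.16 to -0.56).

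The 6 Ahnak probes, of which 4 lie on 1 listed transcript and 2 on another, disagreed. The probe at base 17393 of transcript 1 (chr19:9085535-9085594) had levels of 0.35, -0.10 and -0.66 in double-positive cells, of 0.10, -1.77 and -0.93 in Eng-Flk1+, and of 1.56, 0.88 and 0.90 in Eng+Flk1-, against -3.59, -3.29 and -4.37 in double-negative cells. With every probe tested on its own it passed against double-negative cells in double-positive cells (3.62 ± 0.57, limma adjusted p = 0.00771), in Eng-Flk1+ (2.88 ± 0.57, 0.0257) and also in Eng+Flk1- (4.86 ± 0.57, 0.00260). The arrays of each of these fractions lay above all double-negative arrays, and on slide 1 the Eng-Flk1+ array stood at 0.10, above all 3 double-negative arrays. With the slide as a block the folds were 5.33, 3.85 and 7.10 and none of these calls was kept (limma adjusted p = 0.240, 0.116 and 0.256). The call in Eng-Flk1+ was also lost without double-negative replicate 3 (0.0555), Eng-Flk1+ replicate 1 (0.0958) or Eng-Flk1+ replicate 3 (0.0936).

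Nearest to the end of the transcript, the probe at base 17962 passed in Eng+Flk1- against double-negative cells alone (6.25 ± 1.21, limma adjusted p = 0.0284). It was well above background on 1 of 3 double-negative arrays, and the call was lost with the slide as a block (1.000) and without double-negative replicate 3 (0.0670) or Eng+Flk1- replicate 1 (0.0839), 2 (0.0823) or 3 (0.0967). The probe at base 5364 did not pass (4.001 ± 1.60 in that comparison, limma adjusted p = 0.274). Neither probe of transcript 2 passed in any comparison. At base 84 of transcript 2 the levels lay between 0.80 and 1.45 over the first 3 fractions, against 1.56 to 1.63 in double-negative cells, and at its base 822 the fold of Eng+Flk1- against double-negative cells was -0.15 ± 0.70.

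**Figure D4:**
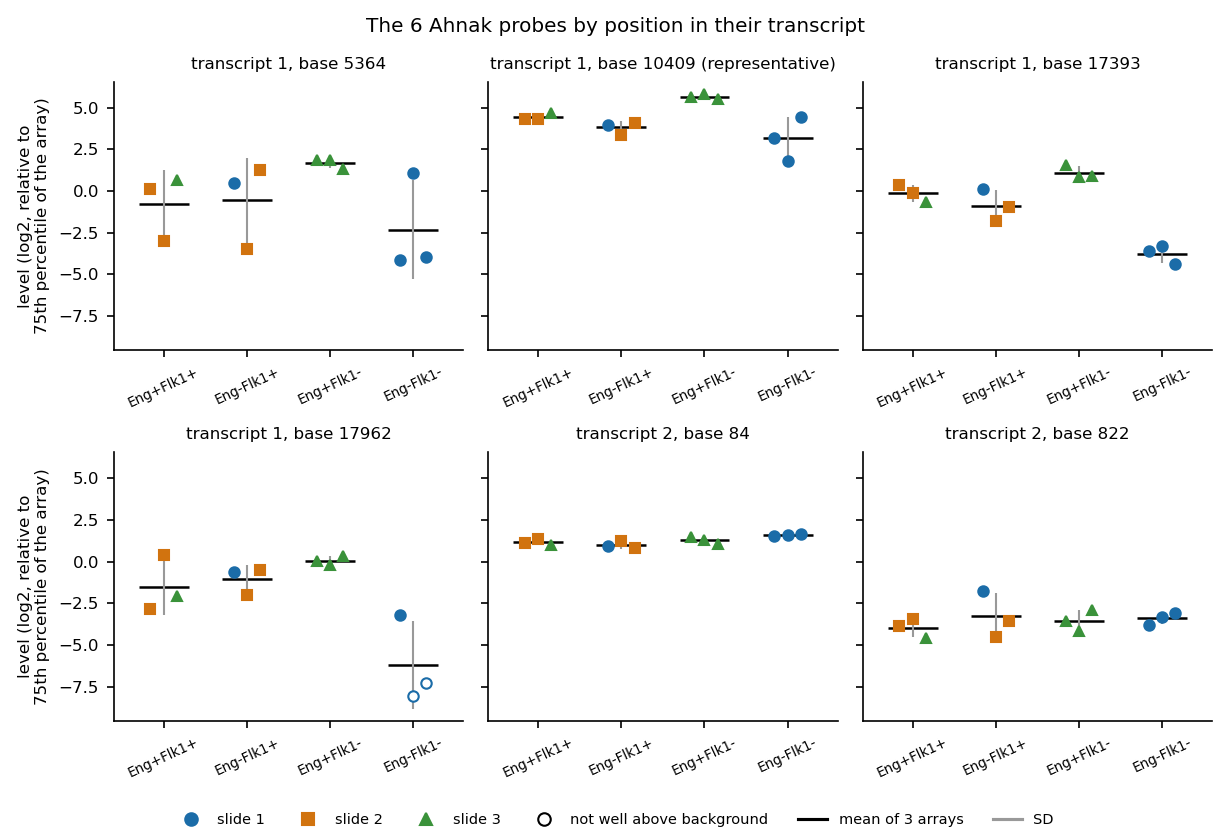
Levels of the 6 Ahnak probes (log2, 75th percentile of each array set to 0) on the 12 arrays by fraction, ordered by position in the transcript, with mean, SD and slide. At base 17393 of transcript 1 the Eng-Flk1- arrays (-4.37 to -3.29) lie under all others, while at base 84 of transcript 2 all 12 arrays lie between 0.80 and 1.63.

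Ordered by mean level, the fractions differed between members. For Foxf1, Tbx4, Twist1, Pitx1 and Pmp22 the highest mean was that of Eng-Flk1+, for Hand1, Ahnak and Postn that of Eng+Flk1-, and for Vcam1 that of double-negative cells. Hand1 was apart at the top of the order, where Eng+Flk1- exceeded Eng-Flk1+ by 2.29 and Eng-Flk1+ exceeded double-positive cells by 3.03 with no overlap of arrays, while double-positive cells and double-negative cells overlapped. Foxf1 overlapped between Eng-Flk1+ and Eng+Flk1- and was apart between each of the next neighbours. Neighbouring fractions overlapped throughout for Pitx1, Postn and Pmp22.

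Among the members, Foxf1 went along with Tbx4 (Pearson r = 0.82 over 12 arrays, 0.60 over the 9 without double-negative cells) and with Hand1 (0.76, 0.73), and ran against Vcam1 (-0.72, -0.69). Hand1 and Twist1, both of the helix-loop-helix family, had r = 0.32 and -0.18, and Twist1 and Ahnak had 0.27 and -0.76. The genes outside the group with the pattern most like Foxf1 were Polr1d (r = 0.97), Osgepl1 (0.96) and Snapc5 (0.95), those most like Twist1 were Rbm6 (0.97), Rbms1 (0.97) and Bahcc1 (0.94), those most like Hand1 were Cops6 (0.92), Ttll12 (0.90) and Pdcd6 (0.90), and those most like Tbx4 were Arl6ip4 (0.92), Gmpr2 (0.89) and Arl3 (0.89). All these values are descriptions over 12 arrays that share slides and the contrast of double-negative cells with the rest. Without double-negative cells, the r of Foxf1 with Polr1d was 0.59 and that of Twist1 with Rbms1 was 0.97.

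Other genes of the allantois and extraembryonic mesoderm were read from a list of 26, of which 25 were tested. Bmp4, the growth factor that extraembryonic mesoderm needs to form, rose against double-negative cells in double-positive cells (4.89 ± 0.62, limma adjusted p = 0.00286), in Eng-Flk1+ (4.82 ± 0.62, 0.00478) and in Eng+Flk1- (6.20 ± 0.62, 0.00148). Its mean levels were 2.10 ± 0.58 (SD, n = 3) in double-positive cells, 2.02 ± 0.57 in Eng-Flk1+ and, as the highest, 3.40 ± 0.34 in Eng+Flk1-, against -2.80 ± 1.202 in double-negative cells. In Eng+Flk1- the trophoblast markers also summed highest (19.4 to 24.2), and their part in the Bmp4 levels was not tested. The T-box gene Tbx20 rose in double-positive cells (3.86 ± 0.72, limma adjusted p = 0.0209) and in Eng+Flk1- (4.07 ± 0.72, 0.0231) against double-negative cells, Tbx3 rose in Eng+Flk1- (4.27 ± 0.88, 0.0453, with 1 of 3 double-negative arrays well above background), and Cdx2, a homeodomain factor of posterior mesoderm and trophoblast, fell in double-positive cells (-4.80 ± 0.98, 0.0317). So 2 of 25 rose and 1 fell in double-positive cells, 1 rose in Eng-Flk1+ and 3 rose in Eng+Flk1- against double-negative cells. Over all genes 1.97%, 1.64% and 1.23% rose in these comparisons, and 2.36%, 1.91% and 1.46% were called in either direction. List medians were -0.33, 0.32 and 0.02, beside -0.06, -0.13 and -0.06 over all genes. Between the fractions that carry a marker 0 passed, against 0.0264% to 0.295% of all genes.

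The interaction of Bmp4 was -6.12 ± 0.88 (limma adjusted p = 0.0244), the 1 call of 25, against 0.273% of all genes. That call was lost without Eng-Flk1+ replicate 1 (0.0661) or 3 (0.0592), double-positive replicate 2 (0.0541), Eng+Flk1- replicate 2 (0.0700) or 3 (0.0657), and with the replicate block (0.0566). The Tbx20 call in double-positive cells was lost without double-positive replicate 1 (0.0667) or 2 (0.0693), and that in Eng+Flk1- without Eng+Flk1- replicate 1 (0.0862) or 2 (0.0904). Both were lost with the normexp background (1.99, limma adjusted p = 0.116, and 2.15, 0.109) and with array weights (0.125 and 0.108). Cdx2 was lost without double-negative replicate 1 (0.050) or 3 (0.0733), double-positive replicate 1 (0.0522) or Eng+Flk1- replicate 1 (0.0510), and with array weights (-4.07, 0.189). Tbx3 was called in 9 of 24 alternatives and lost without Eng-Flk1+ replicate 1 (0.0712) or 3 (0.0531), double-positive replicate 2 (0.0638), Eng+Flk1- replicate 1 (0.122), 2 (0.160) or 3 (0.0888), or double-negative replicate 1 (0.0692) or 3 (0.0851), with the replicate block (0.0782), quantile normalization (0.0904), the normexp background (1.17, 0.259), the authors' table (0.0710), no filter (0.0591) and array weights (0.206). With the slide as a block 0 of these calls was kept.

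Ahnak binds the complex of Anxa2 and S100a10. Of 8 listed binding partners of Ahnak and periostin, these 2 rose against double-negative cells in each of the other fractions and 0 fell. Over all genes 1.97%, 1.64% and 1.23% rose in double-positive cells, Eng-Flk1+ and Eng+Flk1- against double-negative cells, and 0.273% were called in the interaction. Anxa2 had folds of 5.71 in double-positive cells, 5.92 in Eng-Flk1+ and 6.49 in Eng+Flk1- (SE 0.79 each, limma adjusted p = 0.00451, 0.00544 and 0.00412), with 2 of the 3 double-negative arrays well above background. S100a10 had folds of 5.38, 4.77 and 5.61 (SE 0.72 each, limma adjusted p = 0.00413, 0.00935 and 0.00543). None of these 6 calls was kept with the slide as a block (limma adjusted p = 0.113 to 0.987 for Anxa2 and 0.225 to 0.818 for S100a10). The interaction of Anxa2 was -6.70 ± 1.11 (limma adjusted p = 0.0427), called in 9 of 24 alternatives and lost without any one array of Eng-Flk1+ or Eng+Flk1- or without double-positive replicate 1 or 2 (0.0621 to 0.112), with the slide as a block (-5.72, 0.495), the replicate block (0.0597), quantile normalization (0.0697), the normexp background (-4.54, 0.0962), the authors' table (0.0922), no filter (0.0569) and array weights (0.0705). The list medians against double-negative cells were 0.99 in double-positive cells, 1.94 in Eng-Flk1+ and, for Eng+Flk1-, 1.26. The remaining partners, integrins and matrix genes among them, had 0 calls.

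Of 11 partners and inhibitors of helix-loop-helix factors, Id2, which blocks their binding to DNA, was the 1 called, in double-positive cells against Eng+Flk1-. There 0.295% of all genes were called, and the list median was 0.35 beside -0.01 over all genes. Its mean level was -3.48 ± 2.66 (SD, n = 3) in double-positive cells, against 3.41 ± 0.16 in Eng+Flk1-, and it fell by 6.88 ± 1.05 on the log2 scale (limma adjusted p = 0.0278), the same pair of fractions in which Hand1 had a fold of -5.33. Summed trophoblast markers were 4.97 to 10.7 in double-positive cells, against 19.4 to 24.2 in Eng+Flk1-. Their part in the Id2 levels was not tested. With the slide as a block the Id2 fold was -9.45 (limma adjusted p = 0.0399). The call was lost without Eng-Flk1+ replicate 1 (0.0556) or 3 (0.0528), double-positive replicate 1 (0.106), Eng+Flk1- replicate 1 (0.0914), 2 (0.0904) or 3 (0.118), with the mean of all probes (-3.11, 0.133) and with the replicate block (0.0592).

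In the hedgehog pathway, which acts upstream of Foxf1 in several tissues, 0 of 10 tested genes passed in any comparison, with a fold for Gli3, a transcription factor of the pathway, that did not pass (4.99 ± 1.36 in Eng-Flk1+ against double-negative cells, limma adjusted p = 0.106), and likewise for Smo, which carries its signal across the membrane (1.62 ± 0.50 in Eng-Flk1+ against Eng+Flk1-, 0.498). Of 7 genes of attachment of the allantois to the chorion 0 passed. Itgb1, a subunit of the integrin that binds Vcam1, had a fold of 1.68 ± 0.76 in double-positive cells against double-negative cells (limma adjusted p = 0.325) and Bmp7 one of -2.47 ± 0.95 in double-positive cells against Eng-Flk1+ (0.904). Of 11 tested paralogs of the members 0 passed, among them Icam2, an adhesion molecule of endothelium (3.19 ± 0.74 in double-positive cells against double-negative cells, limma adjusted p = 0.0545). Over all genes, the share called was 0.0264% to 2.36% in the pair comparisons and 0.273% in the interaction. Bmp5, Bmp7, Rspo3, Hand2 and Twist2 stand in more than 1 of these lists.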

How the data were processed

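Each of the 12 arrays is a 1-colour Agilent array hybridised with Cy3-labelled cDNA amplified from 3000 sorted cells. Per the file headers, the deposited intensity values were read with Agilent Feature Extraction 10.5.1.1, which subtracted background and detrended each array, and probe positions are on mm8. The authors' deposited table of normalized intensities equals the same processed signal divided by the array median. It served as an alternative.

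Control spots (1639 an array) and outlier spots were left out, log2 processed signals were scaled to the 75th percentile of each array, and spots of a probe were averaged. Names were updated through RefSeq (24496 probes by accession, 8003 kept as in the files). Of 27539 genes, 22720 were tested with limma 3.58.1 in R 4.3.3, in 1 model over the 4 fractions, with Benjamini-Hochberg adjustment over all genes and a threshold of 0.05. Single probes were adjusted over all probes. The test was also checked on simulated data. Of 200 genes shifted by 4 on the log2 scale in Eng+Flk1-, 55% were called against Eng-Flk1-, with 3 false calls. Of each related list, every gene that passed was named, or else the 2 genes with the lowest p in the 6 pair comparisons. One gene that this rule names is not reported here. The members and lists were chosen with earlier results of these data known. The number of arrays, 3 a fraction, limits the precision. Alternatives covered normalization, background, filter, probes, slide, replicate number, weights and leaving out each array.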

Additional observations from a re-analysis of the deposited data

Results flagged for a closer look

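For Foxf1 the difference that goes with Endoglin differed between Flk1 positive and Flk1 negative cells by the test of that interaction, which gave -7.53 on the log2 scale (limma adjusted p = 0.0236). The fold was -2.50 for Eng+Flk1+ against Eng-Flk1+ and 5.03 for Eng+Flk1- against Eng-Flk1-. With the slide as a block the interaction was -6.76 (limma adjusted p = 0.394).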

How the results depend on the processing

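Of the 5 member folds that passed, 0 changed sign in any of the 26 alternatives (14 settings and 12 fits without 1 array), and 37 sign changes fell on 17 of the 63 member folds. Alternatives for the genes of related lists and for single probes were chosen after seeing the data. The slide as a block left 0 members called in each comparison against Eng-Flk1- and in the interaction. Why calls moved was not tested.

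Members called in Eng+Flk1- against Eng-Flk1- numbered 2 with quantile normalization, normexp background, the mean of probes, an intensity trend or the replicate block, and 5 with the slide as a random block, against 1. In Eng-Flk1+ against Eng-Flk1- the filter on all 12 arrays left 1, against 2, since it removes Twist1. In Eng+Flk1+ against Eng-Flk1- normexp background and that filter left 0 and the random slide gave 2, against 1. In Eng+Flk1+ against Eng+Flk1- normexp background gave 1 and leaving out the Eng-Flk1- arrays 1, against 0, and in Eng-Flk1+ against Eng+Flk1- the random slide and array weights gave 1 each, against 0. Without 1 array at a time the counts were 1 to 2 in Eng+Flk1- against Eng-Flk1-, 2 to 4 in Eng-Flk1+ against Eng-Flk1-, 1 to 2 in Eng+Flk1+ against Eng-Flk1-, 0 to 1 in Eng+Flk1+ against Eng+Flk1-, and 0 to 2 in the interaction.

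Replicate numbers showed no clear pairing of the samples, though pairing is not excluded. Same-numbered samples of different fractions had deviations correlated at -0.0898 to 0.130 over 18 pairs, against -0.101 to 0.0805 over 36 pairs of other numbers. Of the 12 arrays, 6 were closest to their own number. With the replicate block the members called were 2 in Eng+Flk1- against Eng-Flk1- and 0 in the interaction.

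None of the folds that changed sign had passed. With the slide as a block they were Tbx4 (-0.93), Vcam1 (-0.44) and Postn (0.25) in Eng-Flk1+ against Eng+Flk1-, Pitx1 in Eng+Flk1+ against Eng-Flk1- (1.29), Postn in Eng+Flk1- against Eng-Flk1- (-1.60) and Pmp22 in Eng+Flk1+ against Eng+Flk1- (0.41). With a random slide they were Pitx1 (-0.040) and Pmp22 (-0.36) in Eng-Flk1+ against Eng+Flk1-. With array weights they were Tbx4 in Eng+Flk1+ against Eng+Flk1- (0.37), Vcam1 in Eng+Flk1+ against Eng-Flk1+ (-0.041) and Pitx1 in Eng-Flk1+ against Eng+Flk1- (-0.074). With the mean of probes they were Vcam1 against Eng-Flk1+ (-1.10) and against Eng+Flk1- (-0.49) in Eng+Flk1+, and Pmp22 in Eng+Flk1+ against Eng-Flk1- (-0.011) and in Eng-Flk1+ against Eng+Flk1- (-0.42). With normexp background they were Hand1 in Eng+Flk1+ against Eng-Flk1- (-0.30) and Pmp22 in Eng-Flk1+ against Eng+Flk1- (-0.014), and with quantile normalization Postn in Eng+Flk1- against Eng-Flk1- (-0.14).

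Without 1 array at a time, folds that spanned 0 were those of Tbx4 in Eng+Flk1+ against Eng+Flk1- (-1.46 to 0.43), Hand1 in Eng+Flk1+ against Eng-Flk1- (-0.27 to 2.66), Vcam1 in Eng+Flk1+ against Eng-Flk1+ (-0.41 to 0.53), Pitx1 in Eng+Flk1+ against Eng-Flk1- (-1.31 to 0.058) and in Eng-Flk1+ against Eng+Flk1- (-0.49 to 1.77), Postn in Eng+Flk1- against Eng-Flk1- (-0.92 to 1.45) and in Eng-Flk1+ against Eng+Flk1- (-2.11 to 0.26), and Ahnak in Eng-Flk1+ against Eng-Flk1- (-0.0057 to 1.30). Those of Pmp22 were -1.20 to 0.16 in Eng+Flk1+ against Eng-Flk1+, -1.14 to 0.23 in Eng+Flk1+ against Eng+Flk1-, -0.50 to 0.65 in Eng-Flk1+ against Eng+Flk1-, and, against Eng-Flk1-, -0.82 to 2.07 in Eng+Flk1+, -0.19 to 2.71 in Eng-Flk1+ and -0.27 to 2.63 in Eng+Flk1-.

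Counts over all genes moved by more than 1.5 times as follows. For Eng+Flk1+ against Eng-Flk1+ (6), it was 3 with normexp, 3 with no filter, 0 with the all-array filter, 11 with single probes, 0 with the slide block, 0 with the replicate block, 0 with a trend, 45 with array weights, 13 with no Eng-Flk1- arrays. For Eng+Flk1+ against Eng+Flk1- (67), it was 42 with no filter, 37 with the all-array filter, 119 with probe means, 113 with single probes, 12 with the slide block, 184 with a random slide, 23 with the replicate block, 210 with array weights, 129 with no Eng-Flk1- arrays. For Eng-Flk1+ against Eng+Flk1- (23), it was 38 with quantile, 48 with normexp, 6 with the all-array filter, 36 with probe means, 41 with single probes, 0 with the slide block, 333 with a random slide, 10 with the replicate block, 239 with array weights, 74 with no Eng-Flk1- arrays. For Eng+Flk1+ against Eng-Flk1- (537), it was 287 with normexp, 260 with the all-array filter, 1003 with single probes, 0 with the slide block, 2470 with a random slide, 167 with array weights. For Eng-Flk1+ against Eng-Flk1- (435), it was 247 with normexp, 199 with the all-array filter, 864 with single probes, 16 with the slide block, 1057 with a random slide, 162 with array weights. For Eng+Flk1- against Eng-Flk1- (331), it was 144 with normexp, 165 with the all-array filter, 665 with single probes, 0 with the slide block, 2832 with a random slide and fewer than 331 with array weights. For the interaction (62), it was 39 with quantile, 39 with normexp, 32 with the authors' table, 21 with the all-array filter, 182 with single probes, 0 with the slide block, 23 with the replicate block. Without 1 array at a time these counts were, in the same order, 0 to 7, 26 to 107, 7 to 60, 258 to 1022, 166 to 994, 143 to 845 and 24 to 310. The authors' table moved the median fold of all genes to -0.66, -0.73 and -0.63 in Eng+Flk1+, Eng-Flk1+ and Eng+Flk1- against Eng-Flk1-, against -0.06, -0.13 and -0.06, and the share of higher among called genes was 59.4%, 54.9% and 61.5%, against 83.2%, 85.7% and 84.6%. With quantile normalization that share was 67.7%, 54.3% and 69.5%, and with normexp background 70.0%, 72.1% and 69.4%. For the interaction it was 15.6% with the authors' table and 23.1% with normexp background, against 4.84%.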
